A study of Mus musculus and Rattus norvegicus with 24 samples.

Results

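The 40 genes described here code for the contractile filaments of heart muscle, for titin and the M-band, for the Z-disc, and for proteins that tie these structures to each other and to the cell border. They were chosen by name, as a fixed list of symbols. No measured value entered that rule, but earlier results of these data were known when the list was made. All 40 were found among the 54532 gene rows of the mouse heart table, and 33 among the 17301 gene names of the rat cell table. By role, 7 belong to the thick filament, 11 to the thin filament, 6 to titin and the M-band, 11 to the Z-disc, and 5 link filaments to the cell border.

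RNA of 18 mouse heart samples and 6 samples of cultured rat ventricular cells was sequenced, to compare hearts and cells with different amounts of ATF4, a transcription factor of the cell's stress response. The heart samples came from mice of 2 genotypes, named ctrl and cKO in the sample titles. They were taken after sham surgery, or 3 or 7 days after transverse aortic constriction (TAC), which narrows the aorta and loads the left ventricle with pressure, with 3 libraries in each of the 6 groups. A further label field lists ATF4 overexpression for the cKO hearts, against the titles and the design text, which call them cKO. The promoter or cell type that drives the deletion, the strain, the age and the sex of the mice are not given in the labels used here. The rat cells, neonatal rat ventricular myocytes (NRVM), were plated with serum and bromodeoxyuridine, a compound that holds back dividing cells, and were then treated in serum-free medium with adenovirus carrying GFP (adGFP) or ATF4 (adATF4), with 3 libraries each. Nothing states whether libraries of a group came from separate animals or cultures, and "hearts" below stands for heart libraries, so p-values measure only the spread between these libraries, which may be technical.

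A sarcomere, the contractile unit of striated muscle, runs from one Z-disc to the next. Thin filaments of actin, tropomyosin and troponin are anchored in the Z-disc by alpha-actinin, and thick filaments of myosin are held together in the middle by the M-band. Titin spans from Z-disc to M-band as a spring, and desmin, filamin C and the Xin proteins connect Z-discs to their neighbours and to the intercalated discs, where heart cells join end to end.

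Promoter sequence was examined because several members rose or fell in the same comparisons. In the RefSeq table for GRCm38.p6, 35 of the 40 members had a window of 300 bases, which ends 50 bases after the gene's start, and these made up 46 of 32851 windows. Both strands were searched. The CArG box, a binding motif of serum response factor, was in 15.2% of the members' windows and in 1.63% of all windows, in Actc1, Ldb3, Myl3, Myl7, Myom1 and Nebl. The MEF2 site, a motif of a family of muscle transcription factors, was in 15.2% against 3.19%, in Mybpc3, Myom3, Myoz2, Synpo2l, Ttn and Xirp2. CATTCC, the motif of TEAD factors, was in 26.1% against 14.7%. TGATGNAA, a motif through which ATF4 acts with C/EBP factors, was in 4.35% against 3.97%, in Pdlim3 and Tnnt1, and TGACGTCA, the cyclic AMP response element, was in 2.17% against 1.79%, in Pdlim3. Windows of 1 gene can overlap: the 2 Ldb3 windows hold the same CArG box and the 2 Flnc windows the same CATTCC. By gene, the CArG box was in 6 of the 35 members, the MEF2 site in 6 and CATTCC in 11. A match describes the letters of a window and is not evidence of binding, and CATTCC may overlap the other motifs.

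The stretches of 250 bases before the RefSeq start of 5 genes are shown 5′ to 3′ on the gene's strand, with the matched motif in capitals. They belong to the linker and Z-disc genes with the highest TAC folds described below. The main actin gene and the atrial myosin light chain compared between isoforms follow. The last is Tnnt1, which holds a TGATGNAA match. Tnnt1 was lower 7 days after TAC than in every sham heart of the same genotype, with a call in cKO hearts only. It was not called in rat cells. The Xirp2 stretch is chr2:67445752-67446001 on the plus strand, with its MEF2 site starting 74 bases before the start. The Synpo2l stretch is chr14:20668355-20668604 on the minus strand, with a MEF2 site at 109 bases. The Actc1 stretch is chr2:114052876-114053125 on the minus strand, with a CArG box at 47 bases, and the Myl7 stretch is chr11:5898783-5899032 on the minus strand, with a CArG box at 61 bases. The Tnnt1 stretch is chr7:4515976-4516225 on the minus strand, with its TGATGNAA match at 193 bases. The Actc1 and Tnnt1 stretches lie inside the spans that the mouse data give for these genes, 114047282 to 114053548 and 4504570 to 4516382. Distances are from the RefSeq start.
Xirp2: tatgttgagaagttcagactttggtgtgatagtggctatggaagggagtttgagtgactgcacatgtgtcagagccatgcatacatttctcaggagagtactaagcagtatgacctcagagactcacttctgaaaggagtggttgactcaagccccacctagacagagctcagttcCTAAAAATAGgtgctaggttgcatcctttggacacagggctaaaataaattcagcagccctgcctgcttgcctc
Synpo2l: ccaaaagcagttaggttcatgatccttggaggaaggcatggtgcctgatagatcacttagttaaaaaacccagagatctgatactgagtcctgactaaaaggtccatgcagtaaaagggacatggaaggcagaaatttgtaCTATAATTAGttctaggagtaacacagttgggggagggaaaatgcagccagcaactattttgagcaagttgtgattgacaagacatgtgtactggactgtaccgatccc
Actc1: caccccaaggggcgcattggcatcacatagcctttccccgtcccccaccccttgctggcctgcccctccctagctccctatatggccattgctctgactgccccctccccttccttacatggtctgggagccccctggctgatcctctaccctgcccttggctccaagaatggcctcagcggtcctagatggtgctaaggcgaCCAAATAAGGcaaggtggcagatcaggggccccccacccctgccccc
Myl7: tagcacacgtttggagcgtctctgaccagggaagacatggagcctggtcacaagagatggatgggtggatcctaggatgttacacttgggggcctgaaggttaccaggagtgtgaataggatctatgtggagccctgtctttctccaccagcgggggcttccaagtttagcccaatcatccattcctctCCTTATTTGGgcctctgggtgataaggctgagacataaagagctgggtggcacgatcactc
Tnnt1: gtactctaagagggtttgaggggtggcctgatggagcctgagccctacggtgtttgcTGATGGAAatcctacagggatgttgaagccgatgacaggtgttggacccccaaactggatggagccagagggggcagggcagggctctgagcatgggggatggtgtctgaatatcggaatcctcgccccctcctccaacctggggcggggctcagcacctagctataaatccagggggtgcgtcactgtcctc

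Each heart library held 15106975 to 18112798 counts, of which the 40 genes took 6.48% to 9.03%. In each group the replicates differed by more than counting noise, with a chi-square per degree of freedom of 7.09 or more. Atf4 checks the labels. Its level, in CPM (counts scaled to library size with TMM factors, the unit of all heart levels below), was 66.2, 68.8 and 34.3 in ctrl sham hearts and 20.99, 26.3 and 23.2 in cKO sham hearts. After 3 days of TAC it was 91.0, 80.3 and 84.9 in ctrl and 24.8, 27.1 and 24.8 in cKO hearts, and after 7 days 70.5, 79.9 and 70.3 against 27.2, 31.3 and 27.0. The groups did not overlap at any time, and Atf4 was lower in cKO hearts by edgeR (log2 fold change −1.26, −1.74 and −1.37, adjusted p = 0.0487, 0.000334 and 0.00423). In a principal component analysis 3 libraries lay away from their groups. They were replicate 3 of ctrl TAC 3 d, replicate 2 of cKO TAC 3 d, and replicate 2 of cKO TAC 7 d. The first and the last had the lowest shares of mitochondrial counts, 10.6% and 14.5%, with up to 23.0% elsewhere. Calls of members that ended when one of the 3 was omitted are named with their results. Single omissions below cover the libraries of the groups compared, and cKO TAC 7 d replicate 2 in every heart comparison. Other libraries of the shared model were not omitted one at a time.

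Heart muscle markers were abundant, as the tissue label says. The 12 ventricular markers summed to 83426 to 91530 CPM in ctrl sham and 43058 to 78509 CPM in ctrl TAC 3 d hearts. They summed to 77187 to 84494 CPM in cKO sham and 57947 to 72005 CPM in cKO TAC 7 d hearts, without overlap in either case. In cKO TAC 3 d hearts the sums were 80313 to 91056 CPM, above all ctrl TAC 3 d libraries. In ctrl TAC 7 d hearts they were 75924 to 87114 CPM. The ventricular markers Myl2, Myl3, Tnnt2, Tnni3, Ttn, Actc1 and Tnnc1 and the atrial markers Myl7, Myl4 and Mybphl are also members. These sums are therefore not independent of the members' levels. The 10 atrial markers summed to 205 to 280 CPM in ctrl sham, 242 to 778 in cKO sham, 1072 to 3192 in ctrl TAC 3 d, 377 to 1095 in cKO TAC 3 d, 291 to 548 in ctrl TAC 7 d and 1580 to 4089 in cKO TAC 7 d hearts. Of them, Sln was at 0 in cKO sham, ctrl TAC 3 d and ctrl TAC 7 d hearts, Myl7 in ctrl TAC 3 d hearts and Bmp10 in cKO TAC 3 d hearts. These sums followed Nppa, at 142, 124 and 177 CPM in ctrl sham and 1527, 1009 and 3119 CPM in ctrl TAC 3 d hearts, while Kcnj3, at 54.8 to 66.2 CPM in ctrl sham and 9.28 to 29.99 CPM in ctrl TAC 3 d hearts, went the other way. Markers of other cells did not all move alike. The 8 endothelial markers summed to 1068 to 1160 CPM in ctrl sham and 795 to 1175 CPM in ctrl TAC 3 d hearts, which overlapped. The 8 smooth muscle markers were lower after TAC in ctrl hearts. They summed to 555 to 651 CPM in ctrl sham, 498 to 535 in ctrl TAC 3 d and 371 to 442 in ctrl TAC 7 d hearts. Fibroblast, proliferation and macrophage markers were higher in ctrl TAC 3 d than in ctrl sham hearts. The 8 fibroblast markers, all detected in every group, summed to 948 to 1053 CPM in ctrl sham, 858 to 1278 in cKO sham, 3046 to 15692 in ctrl TAC 3 d, 1484 to 1658 in cKO TAC 3 d, 1281 to 2540 in ctrl TAC 7 d and 2600 to 4844 in cKO TAC 7 d hearts. The 15692 is replicate 3 of ctrl TAC 3 d alone, and the others were at 4254 and 3046 CPM. The collagen genes and Postn carried the rise, with Col3a1 at 262, 246 and 271 CPM in ctrl sham and 1603, 1007 and 4654 CPM in ctrl TAC 3 d hearts, whereas Pdgfra was at 29.0, 38.2 and 30.9 against 32.2, 29.6 and 43.4 CPM. The 8 proliferation markers summed to 8.58 to 15.05 CPM in ctrl sham, 89.4 to 176 in ctrl TAC 3 d and 5.78 to 23.6 in cKO TAC 3 d hearts. The 8 macrophage markers summed to 219 to 261, 258 to 275, 433 to 1037, 332 to 470, 286 to 420 and 481 to 498 CPM in the order of the fibroblast sums, and none was at 0 in a whole group. Their part in the results below was not tested. In whole tissue, fewer cells of a type and less RNA per cell cannot be told apart.

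In ctrl sham hearts, per kilobase of the deposited gene length, Actc1, the cardiac alpha-actin, was the highest member at 6579 ± 696 CPM per kb (SD, n = 3). The ventricular light chains Myl2 and Myl3 followed at 3283 ± 128 and 3056 ± 153, then Tcap at 2435 ± 261 and Tnni3, the cardiac troponin I, at 2083 ± 99.1 CPM per kb. The SDs of Myl2 and Myl3 overlapped. Of the linkers Des was at 598 ± 46.0 and Xirp2 at 33.0 ± 1.80, and the Z-disc gene Synpo2l was at 44.2 ± 1.82 CPM per kb. Titin, whose row is 116.825 kb long, was at 30.3 ± 1.34 CPM per kb, although its level per library was among the high ones at 3540 ± 157 CPM. The lowest were Myom3, Myl4, Myl7, Mybphl and Tnni1, at 0.880 CPM per kb and below, which are genes of slow, skeletal or atrial muscle. Myl7 with 0 to 8 counts per library and Mybphl with 0 to 15 did not pass the filter on low counts, which left 38 members to test among 15535 genes.

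Replicate spread set what could be told apart. The median coefficient of variation of the 38 members was 7.58% in ctrl sham and 7.88% in cKO sham hearts, below the 10.8% of all genes in both groups. It was 22.8% in ctrl TAC 3 d and 22.2% in cKO TAC 3 d hearts, above the 18.1% and 15.1% of all genes. Des varied most in ctrl TAC 3 d (70.9%), Myot in cKO TAC 3 d (73.8%) and Pdlim3 in cKO TAC 7 d hearts (77.6%).

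After TAC, several genes that link filaments to Z-discs and cell borders rose, while some genes of the contractile filaments, the M-band and titin's cap fell. In ctrl hearts 3 days after TAC, 6 members rose and 5 fell by edgeR with Benjamini-Hochberg adjustment, or 11 of 38, where 27.2% of all genes were called, 14.8% higher and 12.4% lower. After 7 days in ctrl hearts 4 were called, all of them higher, where 7.29% of all genes were called, 4.26% higher and 3.03% lower. At an unadjusted p under 0.05 there were 13 members there, so the calls do not show that none fell. Tcap, Tnni3, Tnnt1, Tnnt2 and Tpm1 lay below all ctrl sham libraries without a call. Des, Pdlim5, Myom1 and Myot lay above them, also without a call. In cKO hearts 7 days after TAC, 8 rose and 5 fell, where 21.8% of all genes were called, 11.4% higher and 10.4% lower. In cKO hearts after 3 days edgeR called 0 of 38 members and 0% of all genes, with 4 members at an unadjusted p under 0.05 and 0 called by DESeq2. For ctrl hearts at 3 days the members' share was near that of all genes. The median log2 fold change of the 38 members stayed near that of all genes, at 0.02, 0.15, 0.04 and 0.13 for ctrl 3 d, cKO 3 d, ctrl 7 d and cKO 7 d, against 0.00, 0.01, 0.00 and 0.01. The 5 linkers had medians of 1.00, 0.44, 0.89 and 1.15, with 3, 0, 3 and 4 of them called. The TAC comparisons of a genotype share their sham libraries.

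**Figure D1:**
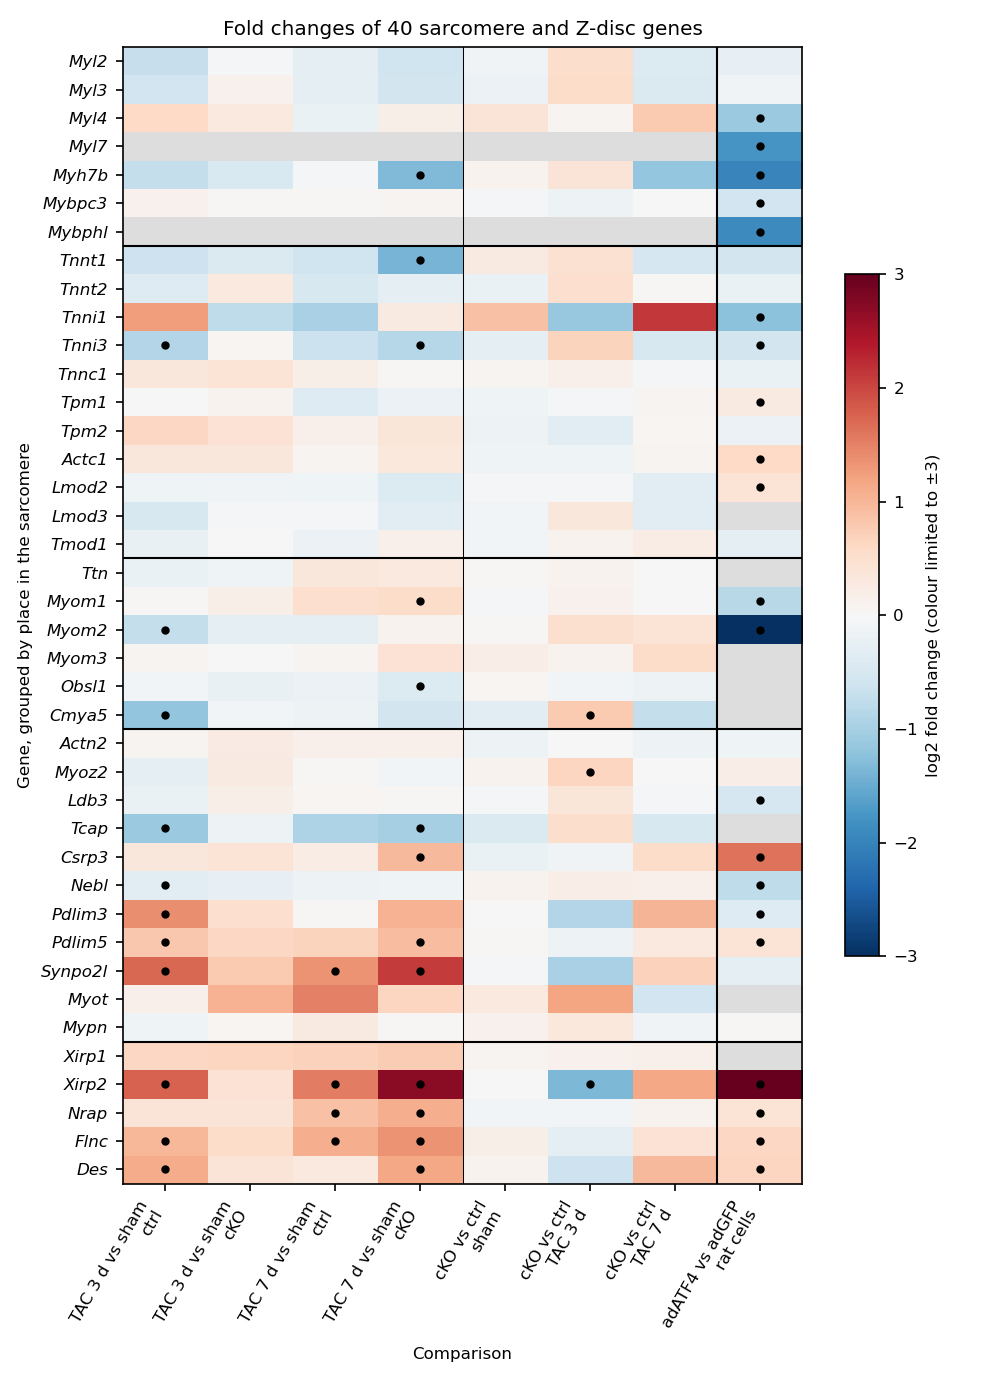
Log2 fold change of each of the 40 genes (rows, grouped by role) in the mouse comparisons and in adATF4 against adGFP rat cells (columns). Red is higher, blue lower, grey not tested, the colour is limited to 3 in either direction, and a black dot marks an adjusted p under 0.05. Xirp2 is dotted red in ctrl hearts at both TAC times, in cKO hearts at 7 days and in rat cells, and the column of cKO against ctrl in sham hearts has no dot.

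Xirp2, which codes for the Xin repeat protein myomaxin of the intercalated disc, is on chromosome 2 at 67446002 to 67526614 (GRCm38, plus strand). In ctrl hearts it was at 372, 415 and 401 CPM after sham surgery, 1007, 850 and 2217 after 3 days and 1489, 987 and 944 after 7 days of TAC. In cKO hearts it was at 345, 357 and 477 after sham surgery, 353, 406 and 840 after 3 days, and 1883, 4373 and 1396 after 7 days. All TAC libraries lay above all sham libraries in ctrl hearts at both times and in cKO hearts at 7 days, whereas at 3 days 2 of 3 cKO libraries lay within the range of cKO sham hearts. The log2 fold change was 1.78 ± 0.43 (SE, adjusted p = 0.00656) in ctrl hearts at 3 days, 1.53 ± 0.42 (adjusted p = 0.0391) at 7 days and 2.70 ± 0.44 (adjusted p = 0.00185) in cKO hearts at 7 days. The first and the last kept their call with any single library left out, although the last was 2.05 without cKO TAC 7 d replicate 2. The ctrl 7 d call was lost without any 1 of its 6 libraries, at log2 values of 1.28 to 1.65.

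Flnc codes for filamin C, which crosslinks actin at Z-discs and membrane attachment sites. It was at 455, 627 and 504 CPM in ctrl sham, 1020, 980 and 1171 in ctrl TAC 3 d and 1345, 905 and 1099 in ctrl TAC 7 d hearts. In cKO hearts the levels were 540, 605 and 645 after sham, 493, 1017 and 1097 after 3 days, and 1195, 2117 and 1208 after 7 days. The TAC and sham libraries did not overlap in the 3 called comparisons, with log2 fold changes of 1.00 ± 0.27 (adjusted p = 0.0120), 1.08 ± 0.27 (0.0250) and 1.34 ± 0.27 (0.00438) for ctrl 3 d, ctrl 7 d and cKO 7 d. The first was lost without ctrl sham replicate 1 (0.90), and the second without any sham library or ctrl TAC 7 d replicate 1 (0.92 to 1.22 over all 6).

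Nrap, whose protein anchors actin at nascent myofibril ends, was at 690, 717 and 727 CPM in ctrl sham and 1471, 1131 and 1347 CPM in ctrl TAC 7 d hearts. In cKO hearts it was at 627, 635 and 754 after sham and 1168, 1845 and 1258 CPM after 7 days, again with no overlap. The log2 fold change was 0.89 ± 0.23 (adjusted p = 0.0280) in ctrl and 1.08 ± 0.23 (0.00536) in cKO hearts. The ctrl call was lost without any 1 of the 6 libraries, at 0.80 to 0.98. At 3 days of TAC Nrap was at 1021, 1028 and 719 CPM in ctrl and 553, 981 and 1083 CPM in cKO hearts, and it was not called in either genotype.

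Des codes for desmin, the intermediate filament that ties Z-discs of neighbouring myofibrils. It was at 2225, 2428 and 2085 CPM in ctrl sham hearts and at 2809, 2969 and 8889 CPM in ctrl TAC 3 d hearts, so that 1 library, replicate 3, was far above the others. The log2 fold change was 1.12 ± 0.36 (adjusted p = 0.0314), and without that library it was 0.38 and not called. In cKO hearts desmin was at 2260, 2285 and 2708 CPM after sham and 4183, 8250 and 3706 CPM after 7 days, with no overlap (log2 1.15 ± 0.36, adjusted p = 0.0338). Without cKO TAC 7 d replicate 2 the value was 0.70 and not called. Both calls were also lost without any 1 sham library of the same genotype. In ctrl hearts at 7 days desmin was at 2605 to 2927 CPM, above all ctrl sham libraries, but was not called. Xirp1, the other Xin gene, was at 273 to 319 CPM in ctrl sham and 398 to 507 CPM in ctrl TAC 3 d hearts and was called in none of the comparisons.

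**Figure D2:**
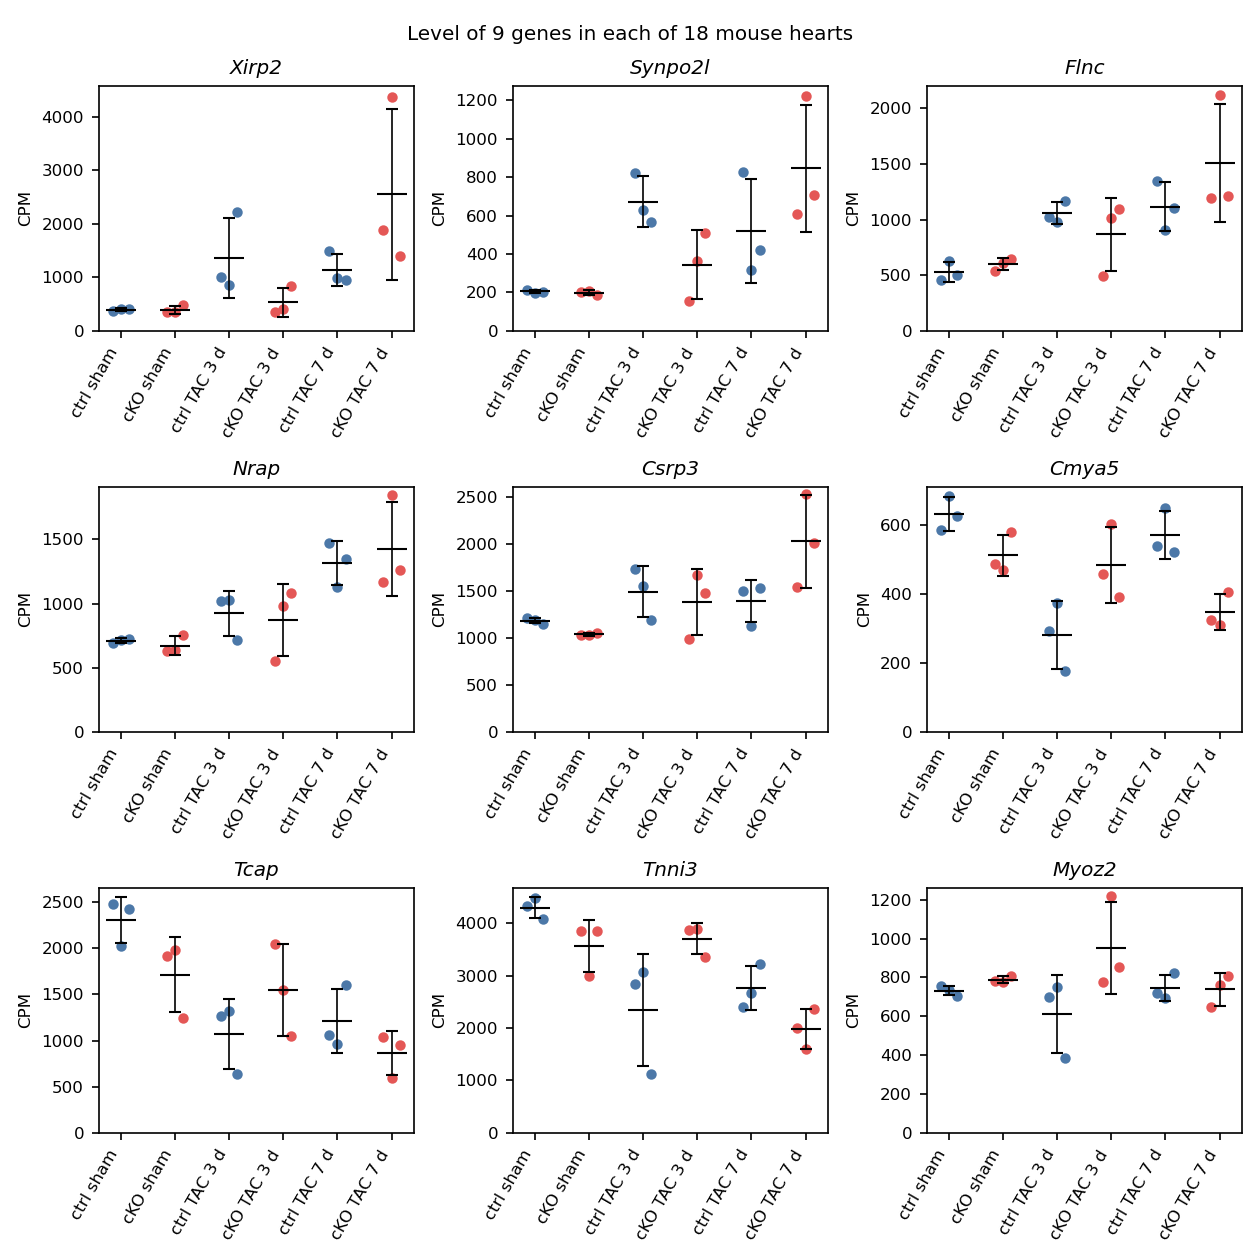
Level in CPM (linear axis from 0) of 9 members in each heart library by group, with points for libraries, blue for ctrl and red for cKO, and bars for the mean ± SD of 3 libraries. Xirp2, Synpo2l, Flnc, Nrap and Csrp3 all have their highest value in the same cKO library taken 7 days after TAC. That library lay away from its group in the principal component analysis. Among the other libraries, Xirp2, Synpo2l, Flnc and Nrap are highest in a ctrl TAC heart, and Csrp3 in a cKO heart 7 days after TAC. Cmya5 and Tcap are lower in all 3 ctrl TAC 3 d hearts than in every ctrl sham heart.

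At the Z-disc, the genes called higher code for scaffold and LIM domain proteins, and Tcap, the cap of titin, was called lower. Of the 11 Z-disc genes 3 rose and 2 fell in ctrl hearts at 3 days, 1 rose at 7 days, and 3 rose and 1 fell in cKO hearts at 7 days. Synpo2l codes for an actin-associated Z-disc protein (chromosome 14, 20658946 to 20668354, minus strand). It was at 213, 196 and 204 CPM in ctrl sham, 822, 629 and 567 in ctrl TAC 3 d, and 827, 314 and 420 in ctrl TAC 7 d hearts. In cKO hearts it was at 201, 209 and 184 after sham, 154, 366 and 510 after 3 days, and 606, 1222 and 709 after 7 days. All TAC libraries lay above all sham libraries of the genotype except cKO TAC 3 d replicate 1, which lay below them. The log2 fold change was 1.72 ± 0.38 (adjusted p = 0.00405) in ctrl at 3 days, 1.35 ± 0.38 (0.0403) in ctrl at 7 days and 2.09 ± 0.38 (0.00289) in cKO at 7 days. The ctrl 7 d call was lost without any sham library or without ctrl TAC 7 d replicate 1 (0.84 without the latter).

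Pdlim5, a PDZ and LIM domain protein that binds alpha-actinin, was at 619, 668 and 575 CPM in ctrl sham and 1082, 1090 and 1109 CPM in ctrl TAC 3 d hearts. In cKO hearts it was at 629, 658 and 622 after sham and 1022, 1436 and 1151 CPM after 7 days. The groups did not overlap in either case (log2 0.82 ± 0.21, adjusted p = 0.00919, and 0.92 ± 0.21, adjusted p = 0.00799), and both calls held with any 1 library left out. In ctrl hearts at 7 days Pdlim5 was at 912 to 1105 CPM, above all ctrl sham libraries, but was not called. Pdlim3, a relative, was at 13.5, 14.5 and 13.0 CPM in ctrl sham hearts. In ctrl TAC 3 d hearts Pdlim3 was at 25.2, 23.9 and 58.8 CPM (1.40 ± 0.42, adjusted p = 0.0222). When replicate 3 of ctrl TAC 3 d was omitted the value was 0.86 and not called, and each ctrl sham library left out also ended the call.

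Csrp3 codes for muscle LIM protein, a Z-disc protein linked to stretch sensing. It was at 1031, 1024 and 1054 CPM in cKO sham and 1543, 2525 and 2005 CPM in cKO TAC 7 d hearts, which did not overlap (0.97 ± 0.21, adjusted p = 0.00582). In ctrl hearts it was at 1205, 1189 and 1148 CPM after sham and 1500, 1129 and 1533 CPM after 7 days, which overlapped. Tcap (telethonin) was at 2479, 2024 and 2422 CPM in ctrl sham and 1271, 1318 and 637 CPM in ctrl TAC 3 d hearts, so every TAC heart was lower (−1.10 ± 0.31, adjusted p = 0.0153). When replicate 3 of ctrl TAC 3 d was omitted the value was −0.82 and not called. In cKO hearts Tcap was at 1912, 1983 and 1245 after sham and 1039, 592 and 953 CPM after 7 days (−0.99 ± 0.31, adjusted p = 0.0312). Leaving out cKO sham replicate 1 or 2, or cKO TAC 7 d replicate 2, ended that call (−1.18 to −0.79 over all 6). In ctrl hearts at 7 days Tcap was at 964 to 1607 CPM, below all ctrl sham libraries, but was not called.

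Nebl codes for nebulette, a short relative of nebulin at the cardiac Z-disc. It was at 236, 231 and 252 CPM in ctrl sham and 204, 186 and 179 CPM in ctrl TAC 3 d hearts, which did not overlap (−0.34 ± 0.12, adjusted p = 0.0457), and its call was lost without any 1 of the 6 libraries (−0.39 to −0.28). Alpha-actinin (Actn2), Ldb3, Mypn and Myot were called in no heart comparison. Myot, the gene of myotilin, was at 26.0, 49.2 and 33.8 CPM in ctrl sham and 104, 97.9 and 111 CPM in ctrl TAC 7 d hearts, with no overlap but an adjusted p of 0.104 (log2 1.52 ± 0.56).

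In the group of titin and the M-band, Cmya5 had the smallest adjusted p of all members in ctrl hearts at 3 days. Its product myospryn binds desmin and alpha-actinin and is present at several sites of the sarcomere. The gene is on chromosome 13 at 93040713 to 93144724 on the minus strand. It was at 586, 685 and 625 CPM in ctrl sham, 292, 372 and 175 in ctrl TAC 3 d and 539, 649 and 522 CPM in ctrl TAC 7 d hearts. In cKO hearts it was at 486, 469 and 578 after sham, 457, 604 and 390 after 3 days and 323, 310 and 406 CPM after 7 days. In ctrl hearts the 3 d libraries lay below all others, and in cKO hearts the 7 d libraries lay below all sham libraries. The ctrl fall at 3 days was −1.17 ± 0.22 (adjusted p = 0.00147) and held with any 1 library left out, while the cKO value at 7 days was −0.56 ± 0.22 with an adjusted p of 0.0732.

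Myom2, an M-band myomesin, was at 1618, 1414 and 1741 CPM in ctrl sham and 1055, 1031 and 839 CPM in ctrl TAC 3 d hearts, with no overlap (−0.71 ± 0.20, adjusted p = 0.0171). The call was lost without ctrl TAC 3 d replicate 3 (−0.59) or ctrl sham replicate 3 (−0.64). Myom1, the gene of myomesin-1, was at 1460, 1511 and 1659 CPM in cKO sham and 1962, 2725 and 2144 CPM in cKO TAC 7 d hearts (0.56 ± 0.16, adjusted p = 0.0242). Obsl1, an obscurin-like linker of titin and myomesin, was at 225, 221 and 218 CPM in cKO sham and 188, 148 and 165 CPM in cKO TAC 7 d hearts (−0.41 ± 0.11, adjusted p = 0.0181). Both sets of groups were apart, and both calls were lost without cKO TAC 7 d replicate 2 or without 1 of several sham libraries, at 0.40 to 0.65 for Myom1 and −0.51 to −0.34 for Obsl1 over the 6 single omissions. In ctrl hearts Myom1 was at 1492 to 1739 CPM after sham and 2209 to 2315 CPM after 7 days. Obsl1 was at 197 to 231 and 179 to 193 CPM there. These groups were also apart, but neither gene was called in ctrl hearts. Titin (Ttn) was at 3385 to 3699 CPM in ctrl sham and 2359 to 3513 CPM in ctrl TAC 3 d hearts. Neither Ttn nor Myom3 was called in a heart comparison.

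Of the 11 thin filament genes, Tnni3 was called lower in ctrl hearts at 3 days. In cKO hearts at 7 days Tnni3 and Tnnt1 were called lower. In ctrl hearts at 7 days both genes also lay below all ctrl sham libraries, without a call. Tnni3 was at 2409 to 3229 CPM there, against 4078 to 4482 CPM in ctrl sham hearts. Tnnt1 was at 7.96 to 8.82 against 11.8 to 14.4 CPM. Tnni3 codes for cardiac troponin I, the inhibitory subunit of the calcium switch. It was at 4333, 4482 and 4078 CPM in ctrl sham and 2843, 3064 and 1125 CPM in ctrl TAC 3 d hearts, which did not overlap (−0.87 ± 0.27, adjusted p = 0.0258). When replicate 3 of ctrl TAC 3 d was omitted the value was −0.53, which was still called, while the call was lost without any 1 of the sham libraries. In cKO hearts it was at 3856, 3001 and 3851 after sham and 1990, 1593 and 2357 CPM after 7 days (−0.85 ± 0.27, adjusted p = 0.0356), and 5 of 6 single omissions ended that call (−1.01 to −0.73). Tnnt1, the slow skeletal troponin T, was at 15.01, 20.7 and 11.5 CPM in cKO sham and 5.73, 5.95 and 6.40 CPM in cKO TAC 7 d hearts (−1.39 ± 0.26, adjusted p = 0.00312), and no single omission ended the call. The 8 members Tnnt2, Tnnc1, Tpm1, Tpm2, Actc1, Lmod2, Lmod3 and Tmod1, which code for troponin T and C, tropomyosins, actin and the pointed-end regulators of actin filaments, were called in no heart comparison.

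Of the thick filament genes, Myh7b, an ancient slow myosin heavy chain, was the only member called in a heart comparison. It was at 189, 188 and 248 CPM in cKO sham and 111, 51.6 and 86.5 CPM in cKO TAC 7 d hearts, so that every TAC heart was lower (−1.33 ± 0.39, adjusted p = 0.0243). The call was lost without cKO TAC 7 d replicate 2 (−1.09) and without cKO sham replicate 3. The light chain Myl2 was at 6250 to 6690 CPM in ctrl sham and 1755 to 5297 CPM in ctrl TAC 3 d hearts, with no overlap but an adjusted p of 0.0807. Mybpc3, the gene of cardiac myosin binding protein C, lay between 4841 and 7140 CPM over all 18 hearts.

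Between genotypes, few members differed. In sham hearts edgeR called 0 of 38 members, 0 had an unadjusted p under 0.05 and DESeq2 called 0, where 0.0193% of all genes were called. At 3 days of TAC, 2 members were higher and 1 was lower in cKO hearts. Of all genes 17.1% were called, 7.73% higher and 9.36% lower, so in this fit the members' share was below that of all genes. The count of members moved with the processing, as given in the last section. Cmya5 was at 457, 604 and 390 CPM in cKO against 292, 372 and 175 CPM in ctrl hearts (0.79 ± 0.22, adjusted p = 0.0222). Myoz2, which codes for calsarcin-1, a Z-disc protein that binds calcineurin, was at 778, 1219 and 855 against 699, 752 and 383 CPM (0.64 ± 0.21, adjusted p = 0.0430). Xirp2, with the 3 d values above, was lower in cKO hearts (−1.35 ± 0.42, adjusted p = 0.0374). The groups did not overlap for any of them. All 3 calls ended when replicate 3 of ctrl TAC 3 d was omitted, with 0.51 for Cmya5, 0.36 for Myoz2 and −0.83 for Xirp2, and when replicate 2 of cKO TAC 3 d was omitted, with 0.60, 0.42 and −1.18. With both omitted the values were 0.32, 0.14 and −0.67. Omitting ctrl TAC 3 d replicate 1 also ended the Cmya5 and Myoz2 calls (0.80 and 0.73), omitting cKO TAC 7 d replicate 2, which enters through the shared estimate of spread, ended that of Myoz2 (0.61), and omitting the first cKO TAC 3 d library ended that of Xirp2 (−1.12).

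At 7 days of TAC edgeR called 0 of 38 members between genotypes, where 0.257% of all genes were called. At an unadjusted p under 0.05 there were 9, and DESeq2 called 1, Cmya5. The largest negative value was that of Myh7b, which was at 111, 51.6 and 86.5 CPM in cKO and 163, 189 and 200 CPM in ctrl hearts with no overlap (−1.15, adjusted p = 0.163). Cmya5 was at 323, 310 and 406 against 539, 649 and 522 CPM (−0.72, adjusted p = 0.135). Other members lay the other way, and 22 of the 38 had a log2 value above 0. Des was at 4183, 8250 and 3706 CPM in cKO and 2927, 2705 and 2605 CPM in ctrl hearts, with no overlap. All 5 linkers had a value above 0, with a median of 0.43. The largest value, 2.12, was that of Tnni1, on few counts. Whether TAC acted differently in the genotypes was tested as an interaction. At 3 days edgeR called 0 of 38 members, where 0.669% of all genes were called. At an unadjusted p under 0.05 there were 6, and DESeq2 called 1, Cmya5, for which edgeR gave 1.09 ± 0.31 (adjusted p = 0.0856). At 7 days it called 0 of 38 members and 0% of all genes, with 4 at an unadjusted p under 0.05 and 0 by DESeq2. The calls that ctrl hearts had and cKO hearts lacked at 3 days are therefore not shown to differ by genotype.

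Between 3 and 7 days of TAC in ctrl hearts, 1 member rose and 2 fell, where 14.8% of all genes were called, 6.95% higher and 7.81% lower. Cmya5 returned upward (1.03 ± 0.22, adjusted p = 0.00792), a call lost only without ctrl TAC 7 d replicate 2 among the single omissions. Pdlim3 fell from 25.2, 23.9 and 58.8 to 17.7, 13.1 and 11.5 CPM (−1.35 ± 0.42, adjusted p = 0.0403). Tnni1, the slow skeletal troponin I, went from 0.512, 0.491 and 1.34 to 0.278, 0.131 and 0.0637 CPM (−2.24 ± 0.64, adjusted p = 0.0299), on 1 to 28 counts a library. Without ctrl TAC 3 d replicate 3 Pdlim3 was −0.82 and Tnni1 −1.61, and neither was called. The Pdlim3 call also ended without any ctrl TAC 7 d library, and the Tnni1 call without the second or the third of them, while without the first it was −2.95 and kept. In cKO hearts 4 rose and 2 fell, where 19.5% of all genes were called, 9.26% higher and 10.3% lower. Xirp2 (2.26 ± 0.43, adjusted p = 0.00419) kept its call whichever library was left out (1.62 without cKO TAC 7 d replicate 2), whereas Synpo2l (1.30, 0.0248), Nrap (0.71, 0.0378), Flnc (0.79, 0.0459), Tnnt1 (−0.94, 0.0212) and Tnni3 (−0.90, 0.0296) lost theirs without cKO TAC 7 d replicate 2, with 0.94, 0.48, 0.47, −0.94 and −0.77, and without 2 or 3 others. Each of these comparisons separated its groups without overlap.

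Isoform shares compare 2 related genes per kilobase within a library. Actc1 made up 98.2, 97.4 and 97.9% of the summed level of Actc1 and the skeletal actin gene Acta1 in ctrl sham hearts, and 96.4, 93.4 and 96.3% in cKO sham hearts. After 3 days of TAC it was 85.5, 79.5 and 88.2% in ctrl and 93.9, 88.3 and 88.7% in cKO hearts, and after 7 days 75.4, 80.4 and 89.2% against 80.3, 83.8 and 83.5%. The share was lower in every TAC heart than in every sham heart of the same genotype except for cKO hearts at 3 days. An exact two-sided permutation test gave p = 0.1 for ctrl 3 d, ctrl 7 d and cKO 7 d, the smallest value possible with 3 against 3. Acta1 itself, which is not a member, was at 186, 292 and 191 CPM in ctrl sham and 2182, 3689 and 1492 CPM in ctrl TAC 3 d hearts (3.46 ± 0.44, adjusted p = 0.000234). The 2 actins are nearly identical in sequence, so the counting could split their reads and the shares are uncertain. Myh7b made up 0.555% of the summed myosin heavy chains Myh6, Myh7 and Myh7b in ctrl sham, 0.636% in cKO sham and 0.304% in cKO TAC 7 d hearts (p = 0.1, exact permutation test, cKO 7 d against sham). The group means of the isoforms of slow, atrial or fetal muscle stayed at or below 0.0292% for Tnni1, 0.0425% for Myl4 and 0.0159% for Myl7, and at 0.380 to 0.812% for Tnnt1 and 0.752 to 1.17% for Tpm2.

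**Figure D3:**
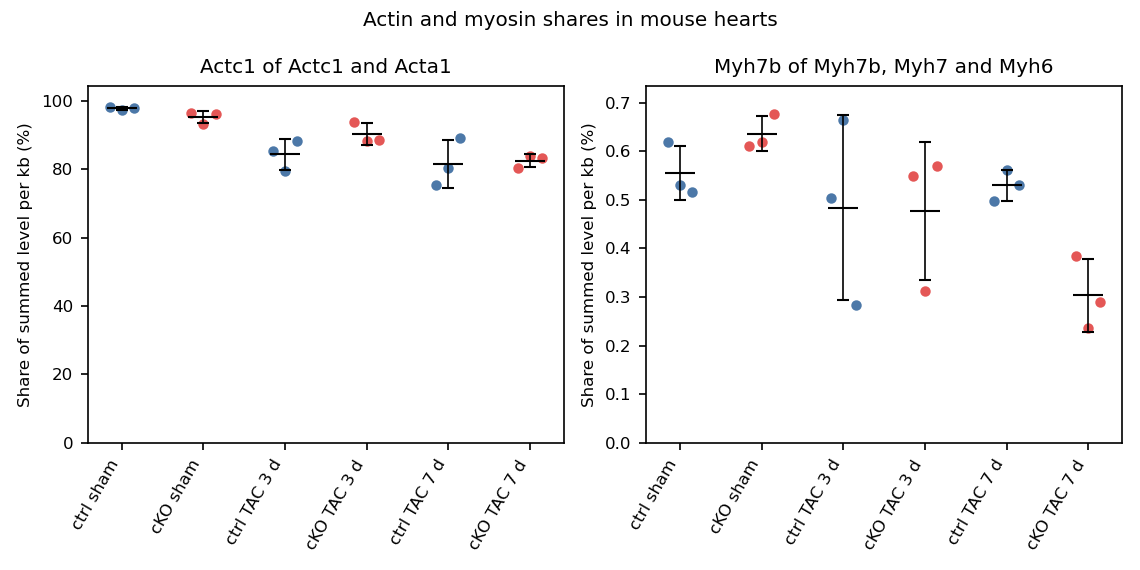
Share (percent of the summed level per kb, axis from 0) of Actc1 among Actc1 and Acta1, left, and of Myh7b among Myh7b, Myh7 and Myh6, right, in each heart library, with bars for mean ± SD of 3 libraries. Actc1 falls from 97.9% in ctrl sham to 81.7% in ctrl TAC 7 d hearts. The lowest group mean of Myh7b is that of cKO TAC 7 d hearts, 0.304%, from 0.384, 0.236 and 0.291%. Replicate 3 of ctrl TAC 3 d, at 0.284%, lies within that range.

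In rat ventricular cells that received ATF4 virus, Xirp2 and other linkers rose, and M-band, atrial light chain and fetal troponin genes fell. Atf4 was at 276 ± 31.1 FPKM (SD, n = 3) with adGFP and 2563 ± 143 FPKM with adATF4 (9.27-fold higher, log2 3.21 on the log2(FPKM + 1) scale, limma adjusted p = 1.25e-08). FPKM is the authors' value, scaled to gene length and to fragments sequenced, and all folds below are on that log2 scale. Of the 33 members listed, 32 were tested, and Myot is listed at 0 in all 6 libraries. Ttn, Myom3, Obsl1, Cmya5, Tcap, Lmod3 and Xirp1 are not listed for rat cells. In limma 9 rose and 12 fell, where 50.6% of all 10571 genes were called, 24.2% higher and 26.4% lower, so the share called, 21 of 32, was above that background. The members' median was −0.22 against −0.04 for all genes. All 4 linkers listed rose, and 5 of 7 thick filament genes fell. Both listed genes of the titin and M-band group, Myom1 and Myom2, fell, and thin filament and Z-disc genes went both ways. Markers of some other cells differed too. The 8 fibroblast markers summed to 1426 to 1553 FPKM with adGFP and 508 to 542 with adATF4. The 8 macrophage markers summed to 140 to 159 and 77.1 to 87.1, with Cx3cr1 at 0 in both. The 8 smooth muscle markers overlapped, at 1857 to 2153 and 1871 to 2277 FPKM. The 11 ventricular markers summed to 28403 to 29611 and 25045 to 25455. Their part in the results was not tested.

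Xirp2 rose most, from 7.37, 8.15 and 10.2 FPKM to 153, 130 and 157 FPKM (log2 3.95 ± 0.13, adjusted p = 1.61e-08). Csrp3 went from 136, 266 and 280 to 659, 677 and 681 (1.63, 0.000182), and Des from 740, 667 and 586 to 993, 1123 and 990 (0.64, 0.000652). The other linkers, Flnc at 57.0, 71.3 and 69.4 against 100.2, 110 and 96.1 and Nrap at 60.4, 66.7 and 74.0 against 85.5, 92.9 and 88.3, rose by 0.63 (0.000817) and 0.41 (0.00622). The groups of each of these genes did not overlap.

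Actc1 went from 2990, 3481 and 3728 to 5170, 5313 and 4957 FPKM (0.60, 0.00158). Lmod2, a leiomodin that nucleates actin filaments, went from 74.2, 80.1 and 74.0 to 106, 90.5 and 110 (0.42, 0.00546), Pdlim5 from 261, 272 and 294 to 357, 384 and 361 (0.41, 0.00227), and Tpm1, the main cardiac tropomyosin, from 1477, 1478 and 1504 to 1715, 1876 and 1812 (0.28, 0.0247). All adATF4 libraries lay above all adGFP libraries for these 4.

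Myom2 fell most, from 514, 559 and 613 to 62.1, 70.0 and 65.8 FPKM (−3.07 ± 0.09, adjusted p = 9.52e-09), and Myom1 from 88.0, 93.6 and 114 to 49.7, 56.2 and 57.8 (−0.83, 0.000187). Myh7b went from 9.52, 10.4 and 10.1 to 1.54, 2.30 and 1.596 (−1.98, 7.40e-06). Mybphl, a myosin binding protein of atrial muscle, went from 19.8, 21.3 and 20.5 to 3.00, 5.88 and 5.81 (−1.91, 3.82e-05), and Mybpc3 from 547, 640 and 632 to 383, 442 and 401 (−0.57, 0.000780). In each of these genes the adATF4 libraries lay below all adGFP libraries.

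The atrial and fetal light chain and troponin genes fell together. Myl7 went from 2816, 2373 and 2145 to 641, 791 and 699 FPKM (−1.78, 1.91e-06), Tnni1 from 1697, 1469 and 1342 to 601, 676 and 624 (−1.24, 7.79e-06), and Myl4 from 747, 648 and 626 to 282, 353 and 297 (−1.12, 1.96e-05). Their groups did not overlap. Nebl (−0.76, 0.00178), Tnni3 (−0.55, 0.00269), Ldb3 (−0.49, 0.0139) and Pdlim3 (−0.38, 0.0103) fell as well, with adATF4 below adGFP in every library. Myl2, Myl3, Tnnt1, Tnnt2, Tnnc1, Tpm2, Tmod1, Actn2, Myoz2, Mypn and Synpo2l were not called. Synpo2l, at 53.9, 60.9 and 61.0 against 41.6, 55.2 and 47.7 FPKM, had an adjusted p of 0.0671 and overlapped.

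**Figure D4:**
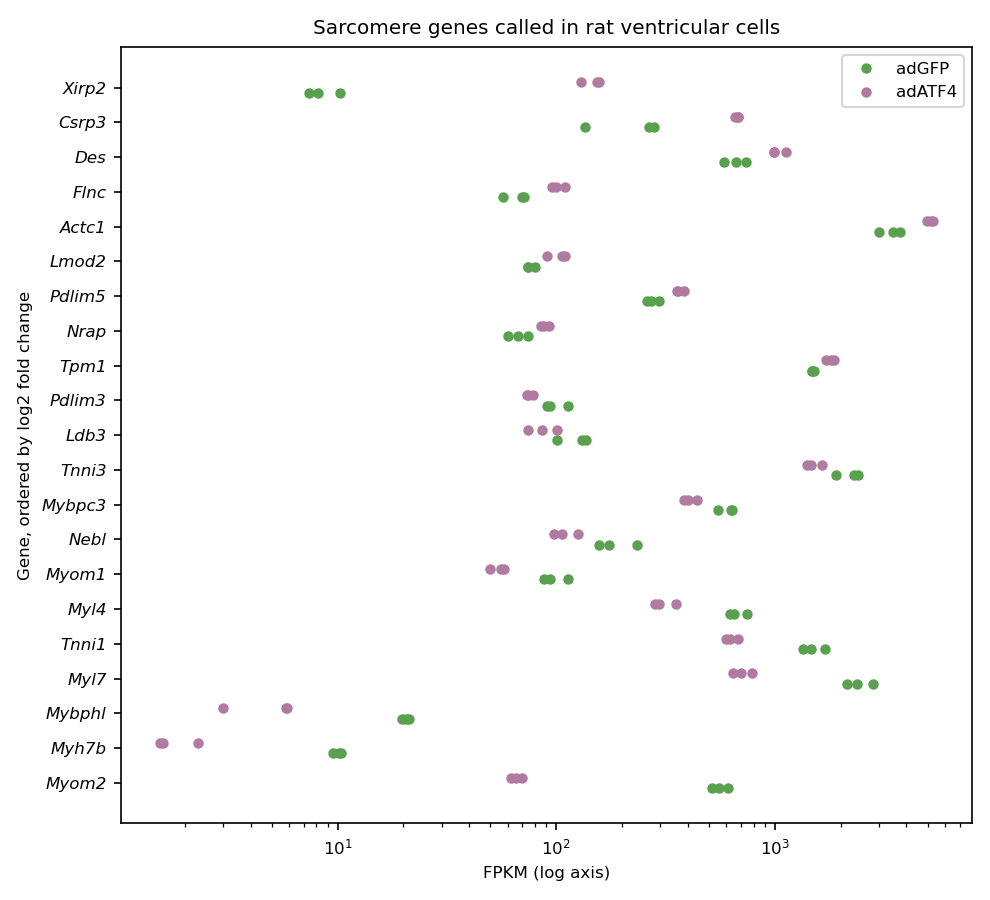
FPKM (log axis) of the 21 members called in rat ventricular cells, ordered by log2 fold change, with 1 point for each of 3 adGFP (green) and 3 adATF4 (purple) libraries. Xirp2 lies at 7.37 to 10.2 with adGFP and 130 to 157 with adATF4, and Myom2 at 514 to 613 against 62.1 to 70.0.

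In rat cells the shares of Tnni1, Myl7, Myl4 and Tpm2 were lower with adATF4, and so was that of Actc1. Tnni1 made up 40.6% ± 1.35 (SD, n = 3) of Tnni1 and Tnni3 with adGFP and 29.7% ± 0.986 with adATF4. Myl7 made up 20.7% ± 1.89 and 8.32% ± 1.00 of Myl7 and Myl2, Myl4 24.6% ± 0.943 and 13.9% ± 0.398 of Myl4 and Myl3, and Tpm2 14.5% ± 0.566 and 11.1% ± 0.356 of Tpm1 and Tpm2. Actc1 went from 94.6, 95.0 and 95.5% to 76.5, 70.2 and 74.8% of Actc1 and Acta1, with Acta1 at 171, 182 and 175 against 1589, 2252 and 1667 FPKM (3.36, adjusted p = 3.12e-08). Myh7b made up 0.224% and 0.0846% of the 3 heavy chains. These 6 shares did not overlap between groups, and the exact permutation p of each was 0.1. The share of Tnnt1 among Tnnt1 and Tnnt2, 0.0468% against 0.0299%, overlapped (p = 0.2, exact permutation test).

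**Figure D5:**
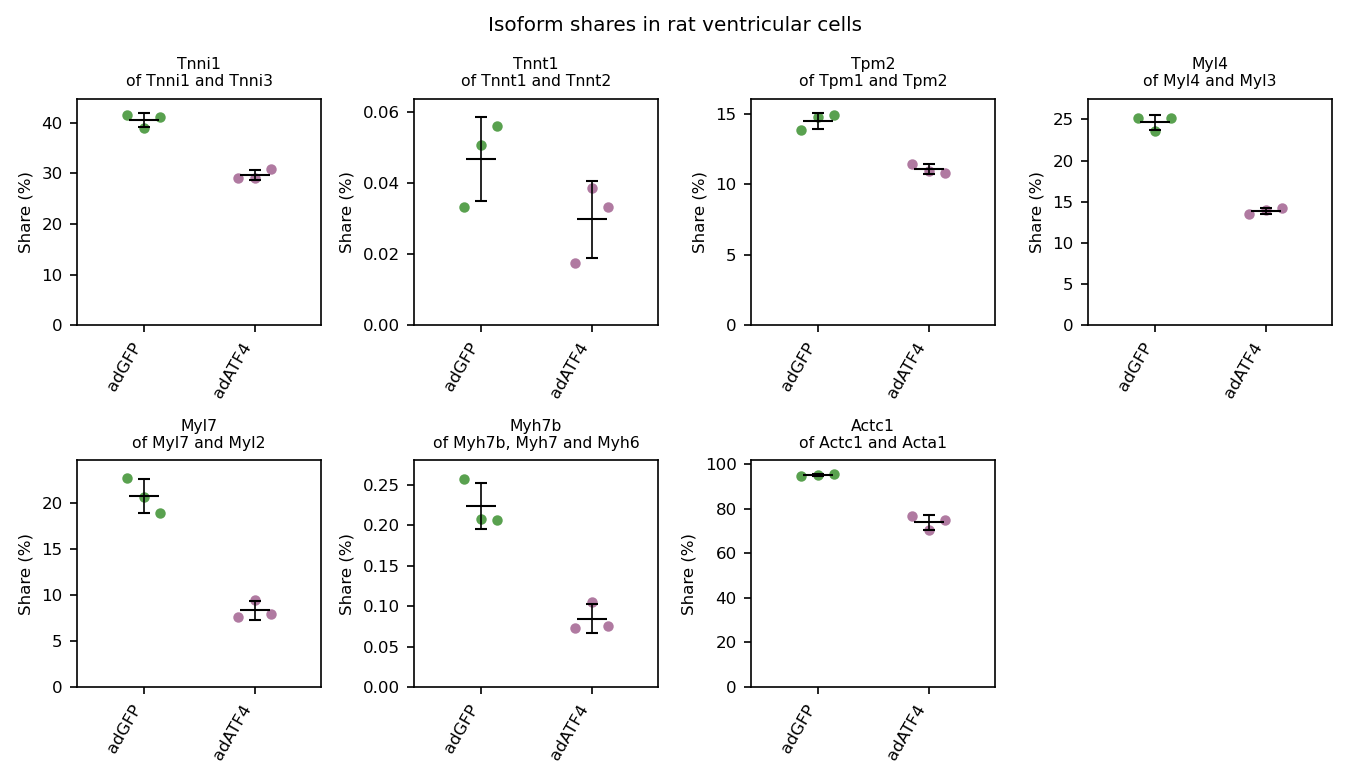
Share (percent, axes from 0) of 1 isoform in the summed FPKM of its pair or trio in rat cells, with points for the 3 libraries of adGFP (green) and adATF4 (purple) and bars for mean ± SD. The Myl7 share goes from 20.7% to 8.32% and the Actc1 share from 95.0% to 73.8%, while the Tnnt1 groups overlap.

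Other genes of the same structures were counted in 5 further lists. In ctrl hearts at 3 days of TAC, of 16 non-muscle cytoskeletal relatives of the sarcomere proteins 11 rose, where 14.8% of all genes did. By adjusted p the first of the list were Tpm4 (1.12 ± 0.15, adjusted p = 0.000240), Actb (1.02 ± 0.15, 0.000319) and Myl6 (1.18 ± 0.18, 0.000537). The fibroblast sums that go with these groups are given above. Of 20 proteins of stretch response and turnover 6 rose and 4 fell, with the LIM protein gene Fhl1 at 131 to 140 CPM after sham and 346 to 534 CPM after TAC (1.81 ± 0.36, adjusted p = 0.00201). Of 18 tested other myofilament isoforms 5 rose and 4 fell. Of 22 assembly factors, kinases and chaperones 6 fell, among them Fhod3 (−0.65 ± 0.15, adjusted p = 0.00608), a formin of actin filament assembly, and Rbm20 (−0.57 ± 0.11, 0.00187), a splicing regulator of titin. Of 16 costamere and intercalated disc linkers 3 rose and 2 fell.

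The lists hold 18 tested isoforms, 22 assembly factors, 20 stretch proteins, 16 costamere genes and 16 non-muscle genes in every heart comparison. In ctrl hearts at 7 days, where 7.29% of all genes were called, 2 isoforms rose and 1 fell, 2 assembly factors rose, 3 stretch proteins rose, 5 costamere genes rose and 1 fell, and 6 non-muscle genes rose. Ankrd1, which codes for a titin-binding ankyrin repeat protein, was at 1110, 815 and 1363 CPM after sham and 4714, 1460 and 2987 CPM after 7 days (1.48 ± 0.41, adjusted p = 0.0389), and 5 of 6 single omissions ended its call (1.02 to 1.80). In cKO hearts at 7 days, where 21.8% of all genes were called, 5 isoforms rose and 5 fell, 4 assembly factors rose and 2 fell, 5 stretch proteins rose, 7 costamere genes rose and 1 fell, and 10 non-muscle genes rose. Myh7, the slow myosin heavy chain, was at 350, 341 and 560 CPM after sham and 2344, 8171 and 1239 CPM after 7 days (3.23 ± 0.61, adjusted p = 0.00308). Without cKO TAC 7 d replicate 2 the Myh7 value was 2.09 and still called. Synm, the intermediate filament protein synemin, went from 12.1 to 25.8 CPM (1.09 ± 0.16, 0.00118). In cKO hearts at 3 days none of the 5 lists had a call by edgeR.

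Between genotypes no gene of these lists was called in sham hearts. At 3 days, where 7.73% of all genes were higher and 9.36% lower in cKO hearts, 9 of the non-muscle genes were lower, 4 isoforms were higher and 2 lower, 2 assembly factors were higher, 2 stretch proteins were higher and 3 lower, and 3 costamere genes were higher and 2 lower. The assembly factors were Fhod3 (0.66 ± 0.15, adjusted p = 0.0102) and Rbm20 (0.46 ± 0.11, 0.0117). Both calls ended when replicate 3 of ctrl TAC 3 d was omitted, with 0.52 and 0.32, and when replicate 2 of cKO TAC 3 d was omitted, with 0.41 and 0.39. At 7 days, where 0.257% of all genes were called, the genes called in these lists were Capn3, a muscle calpain, and Ctnna3, an alpha-catenin of the intercalated disc. Both were lower in cKO hearts (−1.69 ± 0.30, adjusted p = 0.0286, and −0.84 ± 0.16, 0.0361), and each call was lost without any 1 of the 6 libraries (−1.86 to −1.54 and −0.96 to −0.77).

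From 3 to 7 days in ctrl hearts, where 6.95% of all genes rose and 7.81% fell, 4 costamere genes rose and 1 fell, 1 isoform rose and 3 fell, 3 assembly factors rose and 1 fell, 1 stretch protein rose and 1 fell, and 1 non-muscle gene rose and 4 fell. In cKO hearts, where 9.26% rose and 10.3% fell, 10 costamere genes rose and 1 fell, 2 isoforms rose and 4 fell, 1 assembly factor rose and 1 fell, 2 stretch proteins rose and 2 fell, and 6 non-muscle genes rose and 1 fell. Talin-2 (Tln2) and vinculin (Vcl) rose in cKO hearts by 0.85 ± 0.13 (adjusted p = 0.00174) and 0.90 ± 0.16 (0.00351).

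In rat cells, where 50.6% of all genes were called, 3 isoforms rose and 4 fell of 13 tested, 4 assembly factors rose and 7 fell of 20, 2 stretch proteins rose and 5 fell of 16, 3 costamere genes rose and 3 fell of 11, and 5 non-muscle genes rose and 5 fell of 14. The shares of the first 4 lists lie near that of all genes. Fhl1 rose from 185 to 1048 FPKM (2.50 ± 0.09, adjusted p = 2.14e-08). Mylk3, the cardiac myosin light chain kinase, fell from 361 to 104 FPKM (−1.79 ± 0.10, 3.07e-07), and Fbxo32, the ubiquitin ligase atrogin-1, from 75.6 to 17.0 FPKM (−2.10 ± 0.13, 9.54e-07). Fhod3 fell from 53.2 to 26.2 FPKM (−0.99 ± 0.11, 4.45e-05).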

How the data were processed

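The deposited mouse table gives raw read counts per gene for 18 hearts, with the authors' log2 fold changes and p-values, which are not used for the results here. The deposited rat table gives FPKM per gene. Bowtie 0.12.2 and mm9 are named, per the submitters' processing notes, with no role. The positions of the 40 members in the deposited mouse table are those of GRCm38. How reads were counted, and whether by strand, is not given in the sources used here.

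From the counts, edgeR 4.0.16 (R 4.3.3; filterByExpr, TMM, quasi-likelihood F-test, Benjamini-Hochberg over 15535 genes) tested each comparison in 1 model of all 18 hearts. DESeq2 1.42.0 was an alternative. From the FPKM values, limma 3.58.1 tested log2(FPKM + 1) of 10571 genes with at least 1 FPKM in 3 or more libraries. The pseudocount understates changes of low genes. A gene is called at an adjusted p under 0.05. Among rat gene names, 26 turned into dates were left out, and 6 per-sample columns were not used. Low FPKM values step in whole multiples, which put the rat libraries' relative depth at 0.920 to 1.32 of adGFP replicate 1.

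Values in every sample are given for members called between genotypes and, elsewhere, for the 8 called members of smallest adjusted p in each direction. The members and lists were chosen with earlier results of these data known. Alternatives were other scalings, no low-count filter, DESeq2, fits of only the groups compared, a replicate block, removal of a gene-length trend, another pseudocount and omission of libraries. The tests were tried on simulated counts and FPKM values.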

Additional observations from a re-analysis of the deposited data

Results flagged for a closer look

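The response to 3 days of TAC differed between genotypes by the interaction test for 2 genes of the tropomyosin family, both outside the 40 members. Tpm4, a non-muscle tropomyosin, had an interaction log2 value of −0.97 ± 0.21 (SE, edgeR adjusted p = 0.0496). It was at 85.0, 86.4 and 104 CPM in ctrl sham and 223, 179 and 198 CPM in ctrl TAC 3 d hearts, against 86.5, 84.6 and 75.8 and then 85.2, 75.4 and 113 CPM in cKO hearts. Tpm3, the slow muscle and cytoskeletal tropomyosin, had a value of −0.71 ± 0.15 (adjusted p = 0.0477), with 59.2, 71.0 and 66.8 against 119, 97.2 and 117 CPM in ctrl hearts and 61.2, 59.7 and 56.6 against 63.2, 52.6 and 67.2 CPM in cKO hearts. Each call was lost without 9 of the 12 libraries in turn, with values of −1.16 to −0.85 for Tpm4 and −0.83 to −0.62 for Tpm3. Fibroblast markers summed to 3046 to 15692 CPM in ctrl TAC 3 d and 1484 to 1658 CPM in cKO TAC 3 d hearts, and their part in these values was not tested. No group had the 4 samples needed to test for a single outlying library.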

How the results depend on the processing

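Of 40 member calls in hearts, 12 were kept whichever single library of the groups compared was left out. All 40 were kept under DESeq2 and under its size factors. Removing a gene-length trend ended 7 of the 40: Xirp2 in ctrl 7 d, Tcap and Myom1 in cKO 7 d, Nebl in ctrl 3 d, and Flnc, Nrap and Tnni3 from 3 to 7 d in cKO. Fits of only the groups compared ended 11 of 39: Cmya5, Myoz2 and Xirp2 between genotypes at 3 d, Des, Nebl and Tnni3 in ctrl 3 d, Cmya5 and Pdlim3 from 3 to 7 d in ctrl, and Flnc, Nrap and Synpo2l in cKO. The replicate block ended 4, scaling without TMM 3, and the absence of a low-count filter 1. The calls of the 16 rat members with values given in full by the naming rule were kept under every alternative run. No called member changed direction. Counts of members called moved as follows. Without the low-count filter they were 8 (from 3) for genotype at 3 d, 6 (from 0) at 7 d, 17 (from 11) for ctrl 3 d, 4 (from 0) for cKO 3 d, 10 (from 4) for ctrl 7 d, 9 (from 3) for 7 d against 3 d in ctrl, 13 (from 6) in cKO, and 6 and 1 (from 0) for the interactions at 3 and 7 d. DESeq2 gave 5, 1, 9, 6 and 12 for genotype at 3 d and 7 d, ctrl 7 d and 7 d against 3 d in ctrl and cKO, and 1 for the 3 d interaction. Fits of only the groups compared gave 0 for genotype at 3 d, 14 for ctrl 7 d, and 0 and 3 for 7 d against 3 d in ctrl and cKO. Without TMM the last was 11. Leaving out the 3 libraries that lie apart, an alternative chosen after seeing the data, gave 3 for genotype at 7 d and 14 for ctrl 7 d. Omitting both 3 d libraries that lie apart, the third of ctrl and the second of cKO, the counts were 0 and 5 for genotype at 3 d and 7 d, 12 for ctrl 7 d, 20 for cKO 7 d (from 13), and 1 and 14 for 7 d against 3 d in ctrl and cKO. Leaving out single libraries gave 0 to 5 for genotype at 3 d, 6 to 16 for ctrl 3 d, 0 to 4 for ctrl 7 d, 8 to 14 for cKO 7 d, 0 to 7 and 1 to 8 for 7 d against 3 d in ctrl and cKO, 0 to 1 for the 3 d interaction, and 19 to 28 in rat cells. The cause of these moves was not tested. With replicate numbers as a block the counts were 2, 10, 3, 12, 3 and 6 for genotype at 3 d, ctrl 3 d, ctrl 7 d, cKO 7 d and 7 d against 3 d in ctrl and cKO, and 23 in rat cells. Same-numbered libraries did not deviate together (correlations −0.153 to 0.226), so the numbers are not taken as pairs. Members with few counts, such as Tnni1 with 1 to 28 a library, limit what can be told apart.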
